A study of Mus musculus with 12 samples.

Results

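The genes described here encode the matrix metalloproteinases (MMPs) and the tissue inhibitors of metalloproteinases (TIMPs) of C2C12 myotubes, a mouse muscle cell line. They are 10 of the 55487 genes in the deposited count table, 4 TIMPs (Timp1, Timp2, Timp3 and Timp4) and 6 MMPs (Mmp2, Mmp9, Mmp11, Mmp14, Mmp19 and Mmp23). They were chosen by gene symbol, through the Ensembl identifiers of the table and the GENCODE annotation of genome build GRCm38, a rule that uses no measured value. All 10 identifiers were found.

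Both groups were C2C12 myotubes that had been differentiated for 5 days in DMEM with 2% horse serum and antibiotics and were then kept for 24 h in new medium. The control group received DMEM with 4% horse serum (libraries 1 to 6). The treated group received DMEM with 4% STEM (libraries 7 to 12), a preparation, free of cells, of what human pluripotent stem cells secrete while partially differentiated. STEM took the place of horse serum, so the presence of STEM and the absence of horse serum cannot be told apart in this comparison. C2C12 is a single line of muscle cells without the other cell types of muscle tissue, and the labels do not say that the libraries came from separate cultures, so the p-values measure the spread between these libraries. Depth, as the total of the deposited read counts, ran from 13285472 to 18254882 in the control libraries and from 14909485 to 24536264 in the treated ones.

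MMPs are zinc-dependent endopeptidases that cut collagens, proteoglycans and other matrix proteins outside the cell. They are made as inactive proenzymes, and TIMPs bind the active site of the mature enzymes. The gelatinase MMP-2 is activated at the cell surface by the membrane-anchored MMP-14, with TIMP-2 as the bridge between them, and the system is known for its part in the migration and fusion of muscle cells and in the turnover of the matrix around fibers. Transcripts were measured here, not proteins or enzyme activity, and in bulk samples fewer cells of a type and less RNA per cell cannot be told apart.

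The labelled cell type was checked on marker genes. The 10 myotube markers, among them Myh3, Acta1, Ckm and Myog, summed to between 13404 and 14524 CPM (read counts scaled to a common, TMM-normalized library total) in horse serum libraries 1 to 5 and to between 11148 and 14144 CPM in the STEM libraries. Horse serum library 6 stood apart, at 6845 CPM, and was the lowest of its group for 10 of 10 markers. Its share of mitochondrial counts was 2.43%, against 3.72% to 4.21% in the other horse serum libraries and 2.54% to 3.29% in the STEM libraries. This library was kept, and the fitted changes, exact tests, sums and ratios of the TIMP and MMP genes are given with and without it. Of the 10 leukocyte markers, Adgre1 and S100a9 were at 0 and Ptprc had at most 1 count in every library. The list summed to between 7.91 and 9.60 CPM with horse serum and between 8.32 and 10.3 CPM with STEM, and its most abundant gene was Cd14 (4.23 CPM on average). Cd14 and Cd68 were tested and did not pass. Below the filter, Csf1r averaged 0.288 ± 0.198 CPM in the control and 0.916 ± 0.314 CPM in the treated libraries (SD, n = 6, 1 to 30 counts). All but 1 of the treated libraries exceeded all controls. Without horse serum library 6 Csf1r passed the filter, but only through the STEM libraries, where it was higher. Its log2 fold change in that fit (1.45) is therefore given without a test. S100a8 was at 0.364 ± 0.161 and 0.0930 ± 0.0856 CPM (0 to 9 counts). The part of such cells in the results was not tested. The 7 endothelial markers summed to at most 1.0 CPM, with Tek the most abundant (0.410 CPM) and Kdr, Tie1, Emcn and Erg at 0.

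Of the 10 genes, 8 passed the filter on low counts and 2 (Timp4 and Mmp9) did not. Of the 8, 6 were differentially expressed in edgeR's quasi-likelihood test, with a threshold of 0.05 on the adjusted p-value. Timp2, Timp3, Mmp19 and Mmp23 were higher with STEM, and Timp1 and Mmp2 were lower. The same held for 36.4% of all 14175 genes tested, with 18.9% of them higher and 17.4% lower. The median absolute log2 fold change was 0.33 over the 8 genes and 0.19 over all genes tested. Values of the STEM and horse serum libraries were fully separate for 5 of the 8 genes, against 17.2% of all genes tested. Without horse serum library 6, 7 of the 8 were differentially expressed (50.8% of 14267 genes tested in that fit), the addition being Mmp14, and the groups did not overlap for 7 of the 8 (33.4% of all genes).

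**Figure D1:**
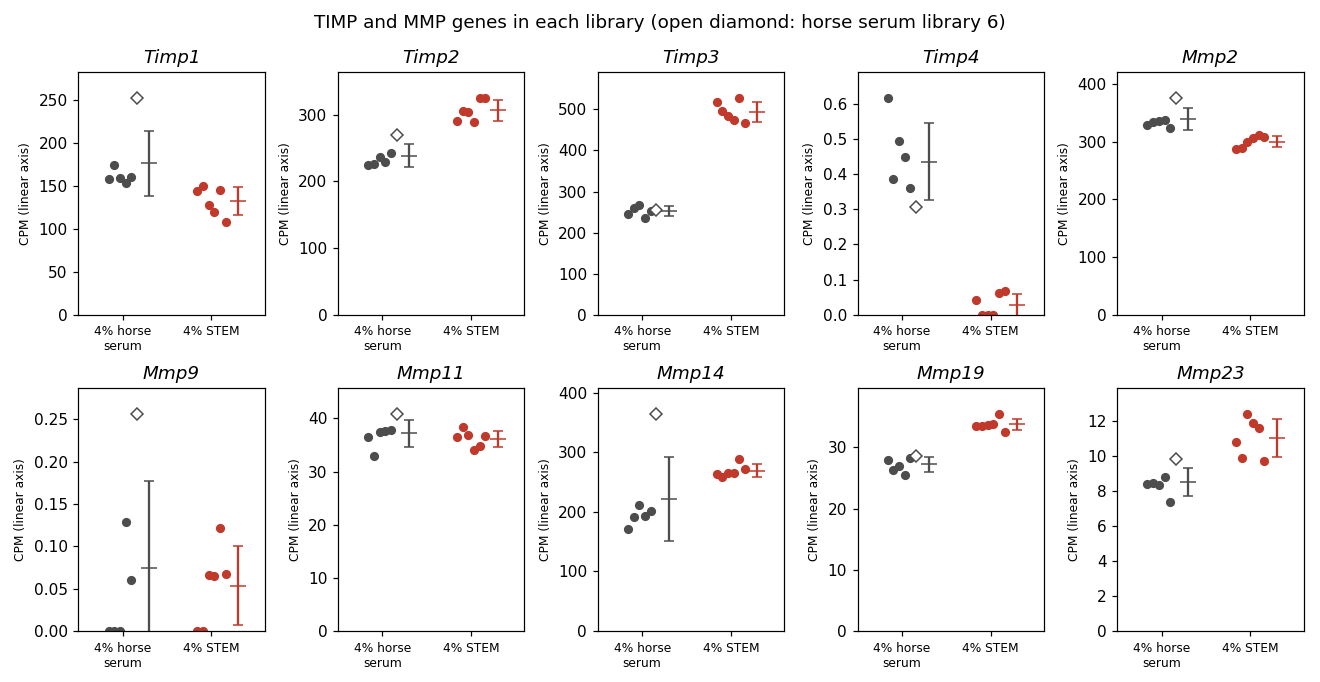
CPM of the 10 TIMP and MMP genes in each of the 12 libraries, with the mean and SD (n = 6) beside the points. The axes are linear and start at 0, so SD bars that reach below 0 for Timp4 and Mmp9 are not drawn in full. The STEM libraries of Timp3 (467 to 528 CPM) lie above every horse serum library (235 to 268 CPM), and the open diamond of horse serum library 6 is the highest horse serum value for 8 of the 10 genes.

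Timp3 had the largest change of the 8 tested genes. It encodes the TIMP that is bound to the matrix and also inhibits ADAM proteases. The gene (ENSMUSG00000020044) lies on the plus strand of chromosome 10, from 86300372 to 86349506. Timp3 was lowest at 235 CPM, had a median of 253 CPM and was highest at 268 CPM with horse serum. With STEM its lowest value was 467 CPM, its median 490 CPM and its highest 528 CPM. The groups were far apart, and library 6 lay within the other horse serum libraries (255 CPM). The ratio of the mean CPM of STEM to that of horse serum was 1.95, and the log2 fold change was 0.97 (adjusted p = 4.76e-09 in edgeR, standard error 0.0475). By p-value Timp3 was number 6 and by size of the rise number 173 of the 14175 genes tested. Without horse serum library 6 the log2 fold change was 0.97 (adjusted p = 1.08e-11 in edgeR).

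Timp2, the inhibitor that also takes part in MMP-2 activation, rose by less. The gene (ENSMUSG00000017466) lies on the minus strand of chromosome 11, from 118301069 to 118355740. Its values ran from 224 CPM through a median of 232 CPM to 270 CPM with horse serum, and from 289 through 304 to 325 CPM with STEM. All 6 STEM libraries were above all 6 horse serum libraries. The log2 fold change was 0.36 (adjusted p = 1.13e-04 in edgeR, standard error 0.0534), and 0.40 without horse serum library 6. Cep295nl, which lies inside Timp2 on the same strand without shared exon bases, had a log2 fold change of -0.14 (adjusted p = 0.655 in edgeR). Without horse serum library 6 the value of Cep295nl was -0.03 (adjusted p = 0.915 in edgeR).

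Timp1 went the other way. It encodes the soluble TIMP that cells secrete in response to growth factors and cytokines (ENSMUSG00000001131, chromosome X, plus strand, 20870166 to 20874735). With horse serum Timp1 ran from 154 CPM through a median of 160 CPM to 253 CPM, and with STEM from 108 through 136 to 150 CPM. The groups did not overlap, although the gap between the lowest horse serum and the highest STEM library was narrow. The log2 fold change was -0.42 (adjusted p = 0.0175 in edgeR, standard error 0.123). The highest horse serum value was that of library 6, and without it the fall was smaller (log2 fold change -0.28, adjusted p = 0.00649 in edgeR). With all libraries and no filter on low counts, Timp1 was not called (adjusted p = 0.0687 in edgeR).

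Timp4 encodes the TIMP known from heart and skeletal muscle (ENSMUSG00000030317, chromosome 6, minus strand, 115241892 to 115252205). It was scarce, with 5 to 9 counts per horse serum library and 0 or 1 count per STEM library. In total 40 counts were found with horse serum and 3 with STEM. Every STEM library was thus below every horse serum library and under the floor of 3 counts. Set at 3 counts in each STEM library, CPM were at least 2.43-fold lower than the horse serum mean (0.436 ± 0.110 CPM, SD, n = 6). The gene was called in edgeR without the filter (adjusted p = 2.6e-05) and in DESeq2 (adjusted p = 1.36e-04).

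Timp1, Timp3 and Timp4 each lie inside a synapsin gene on the opposite strand, and the synapsins are known as proteins of synaptic vesicles. Syn1, around Timp1, was higher with STEM (1.28 ± 0.266 CPM to 2.62 ± 0.668 CPM, SD, n = 6, log2 fold change 1.01, adjusted p = 9.42e-04 in edgeR), while Timp1 was lower. Syn2, around Timp4, fell from 5.58 ± 1.59 CPM to 2.74 ± 0.223 CPM (log2 fold change -1.02, adjusted p = 5.03e-04 in edgeR). Syn3, around Timp3, had at most 1 count in any library. Timp3 and Timp4 share 1733 and 90 exon bases with their host genes and Timp1 shares 0. The sources used here do not say whether the counting used the strand, so reads from shared bases could not be assigned to a strand.

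The sequences before the gene starts of the TIMP with the largest rise (Timp3) and of the tested TIMP that fell (Timp1) are shown to let the regulatory DNA of genes with opposite changes be compared, with that of Mmp14, described next. They are RefSeq promoter windows of build GRCm38.p6, cut to the bases before the gene starts of both RefSeq and GENCODE, at chr10:86300162-86300371 for Timp3, chrX:20869916-20870165 for Timp1 and chr14:54431348-54431597 for Mmp14, all on the plus strand. Capitals mark the GC box (GGGCGG on either strand).
Timp3: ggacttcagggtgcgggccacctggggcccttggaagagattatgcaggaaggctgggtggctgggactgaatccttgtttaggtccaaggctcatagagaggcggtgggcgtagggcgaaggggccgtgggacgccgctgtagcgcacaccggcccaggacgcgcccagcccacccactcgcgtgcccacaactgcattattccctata
Timp1: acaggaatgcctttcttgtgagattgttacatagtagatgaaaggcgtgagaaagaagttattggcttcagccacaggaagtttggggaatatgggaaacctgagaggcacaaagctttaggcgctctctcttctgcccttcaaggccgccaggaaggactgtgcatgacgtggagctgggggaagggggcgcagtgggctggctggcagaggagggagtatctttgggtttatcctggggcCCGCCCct
Mmp14: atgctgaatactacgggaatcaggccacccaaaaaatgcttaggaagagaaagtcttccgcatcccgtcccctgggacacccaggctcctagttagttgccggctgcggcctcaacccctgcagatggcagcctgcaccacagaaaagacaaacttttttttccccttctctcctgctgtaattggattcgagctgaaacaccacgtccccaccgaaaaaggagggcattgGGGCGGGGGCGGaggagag
Promoter windows were found for 7 of the 10 genes, and 250 bases before the RefSeq start were searched on both strands for the GC box, the AP-1 site (TGANTCA) and the TATA box (TATAAA). The GC box was in the windows of Timp1, Timp2, Timp3, Mmp11 and Mmp14, in 1 copy for each TIMP and in 2 for Mmp11 and Mmp14, and in 32.7% of all 32851 promoter windows. For Timp3 that copy lies after the GENCODE start, in bases not shown, and the whole windows of Timp2 and Mmp11 lie after their GENCODE starts, inside the annotated genes. The AP-1 site (6.75% of all windows) and the TATA box (12.4%) were in none of the 7 genes' windows. The letters are a description, and no binding was measured.

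Among the proteases, Mmp2 had the highest level, and its change was the smallest that passed the test. Mmp2 encodes gelatinase A, which cuts denatured collagen and collagen IV (ENSMUSG00000031740, chromosome 8, plus strand, 92827291 to 92853420). It ran from 324 CPM through a median of 335 CPM to 376 CPM with horse serum, and from 288 through 303 to 311 CPM with STEM. The STEM libraries all lay below the horse serum libraries. The log2 fold change was -0.18 (adjusted p = 0.00614 in edgeR, standard error 0.0448), and -0.15 without horse serum library 6, which had the highest value.

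Mmp14 encodes the membrane-type protease that activates pro-MMP-2 (ENSMUSG00000000957, chromosome 14, plus strand, 54431612 to 54445364). Of the 8 tested genes, it was the one whose log2 fold change depended most on library 6. With horse serum it ran from 171 CPM through a median of 198 CPM to 364 CPM, and with STEM from 259 through 265 to 289 CPM. Horse serum libraries 1 to 5 (171 to 211 CPM) all lay below the STEM libraries, and library 6 lay above all of them. With all 12 libraries the log2 fold change was 0.27 (adjusted p = 0.184 in edgeR, standard error 0.153, approximate 95% interval -0.03 to 0.57). Without library 6 it was 0.47 (adjusted p = 1.61e-07 in edgeR, standard error 0.0478).

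**Figure D2:**
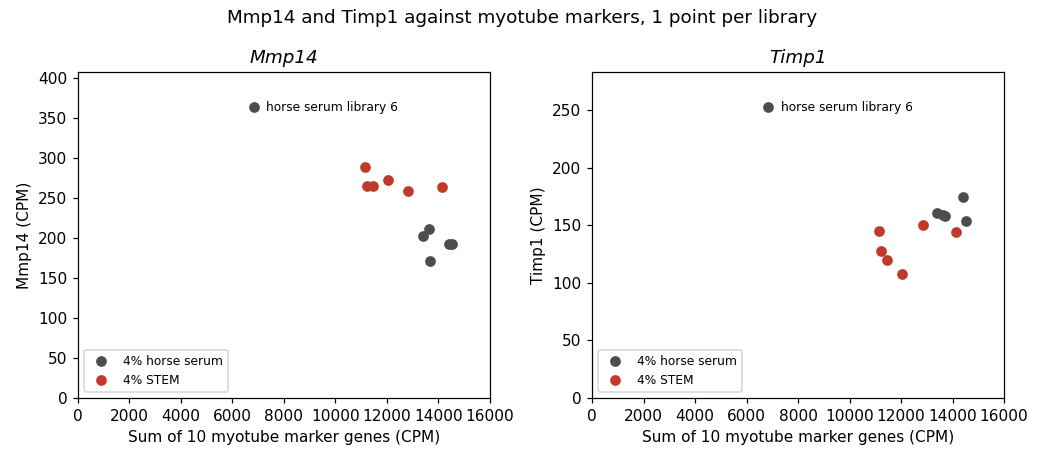
CPM of Mmp14 (left) and Timp1 (right) against the summed CPM of 10 myotube markers, 1 point per library, all axes linear. Horse serum library 6 had the lowest marker sum (6845 CPM) and the highest Mmp14 (364 CPM) and Timp1 (253 CPM) of the 12 libraries.

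Library 6 was thus low in myotube markers and high in Mmp14 and Timp1, and the part of its myotube content in these values was not tested. Timp2, Mmp2, Mmp9, Mmp11, Mmp19 and Mmp23 were also highest in library 6 within the horse serum group, Timp4 was lowest there, and only Timp3 lay within the other 5 libraries. The 8 markers of undifferentiated myoblasts were split in this library. Cdh15 (459 CPM), Notch3, Heyl and Spry1 had their highest horse serum value there, and Sdc4 (135 CPM), Pax7, Myf5 and Vcam1 their lowest. Their sum, of which Cdh15 was the largest part, was 928 CPM in library 6, 825 to 882 CPM in the other horse serum libraries and 834 to 912 CPM with STEM.

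**Figure D3:**
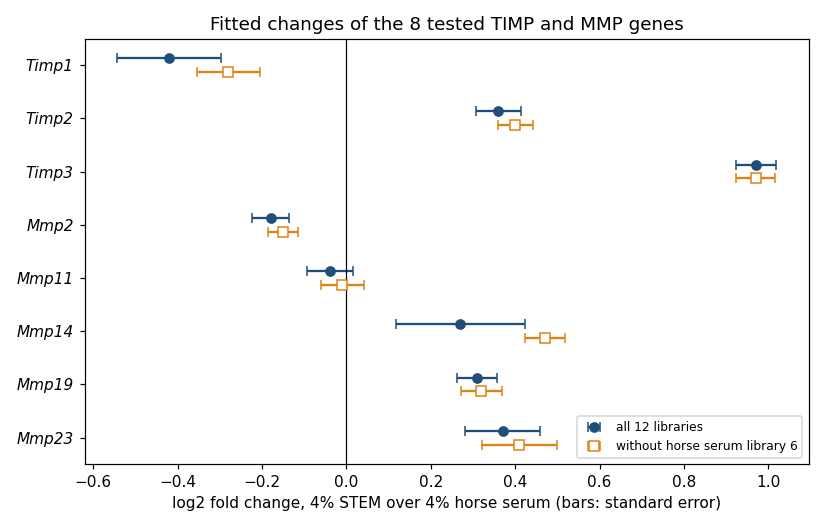
Log2 fold change (4% STEM over 4% horse serum) of the 8 tested genes from edgeR, with all 12 libraries (filled circles) and without horse serum library 6 (open squares). Bars are standard errors. Mmp14 moves from 0.27 to 0.47 and Timp1 from -0.42 to -0.28, while Timp3 is at 0.97 in both.

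The proteases of lower abundance gave a mixed picture. Mmp19, which encodes a secreted protease of basement membrane proteins (ENSMUSG00000025355, chromosome 10, plus strand, 128790910 to 128800824), was tightly grouped. It ran from 25.4 CPM through a median of 27.5 CPM to 28.5 CPM with horse serum and from 32.5 through 33.6 to 35.4 CPM with STEM. The groups did not overlap, and the log2 fold change was 0.31 (adjusted p = 1.9e-04 in edgeR, standard error 0.0480) with all libraries and 0.32 without horse serum library 6. Tmem198b overlaps Mmp19 on the opposite strand over 789 exon bases, and its log2 fold change was 0.09 (adjusted p = 0.411 in edgeR). Without horse serum library 6 the value of Tmem198b was 0.14 (adjusted p = 0.144 in edgeR).

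Mmp23 encodes an MMP that is anchored in the membrane by its propeptide and lacks the usual hemopexin domain (ENSMUSG00000029061, chromosome 4, minus strand, 155650655 to 155653384). It ran from 7.37 CPM through a median of 8.46 CPM to 9.84 CPM with horse serum and from 9.70 through 11.2 to 12.4 CPM with STEM. All but the lowest STEM library were above every horse serum library, and the log2 fold change was 0.37 (adjusted p = 0.00474 in edgeR, standard error 0.0889). Without horse serum library 6 it was 0.41 (adjusted p = 6.82e-04 in edgeR). The gene had 110 to 266 counts per library.

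Mmp11 encodes stromelysin-3, a protease that is activated inside the cell by furin (ENSMUSG00000000901, chromosome 10, minus strand, 75923222 to 75936496). Its values, 33.0 to 40.8 CPM with horse serum and 34.1 to 38.3 CPM with STEM, overlapped. The log2 fold change was -0.04 (approximate 95% interval -0.15 to 0.06, adjusted p = 0.572 in edgeR). Without horse serum library 6 it was -0.01 (adjusted p = 0.841 in edgeR). Mmp11 shares 155 exon bases with Chchd10 on the opposite strand.

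Mmp9, the gene of gelatinase B, which leukocytes are known to make (ENSMUSG00000017737, chromosome 2, plus strand, 164940780 to 164955850), was close to absent. It had 8 counts over all horse serum libraries, of which 5 were in library 6, and 5 counts over all STEM libraries. At this depth no difference could be detected (adjusted p = 0.641 in edgeR without the filter), and no fold is given.

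As single values, tested one gene at a time on log2 CPM, Timp1, Timp2, Timp3, Timp4, Mmp2 and Mmp19 each gave p = 0.00216 in an exact permutation test (two-sided, 6 libraries against 6), the smallest p this design allows. Mmp23 gave p = 0.00433, Mmp14 p = 0.0909, Mmp11 p = 0.437 and Mmp9 p = 0.913 in the same exact test. With library 6 left out, the exact test gave p = 0.00216, again the smallest possible, for Timp2, Timp3, Timp4, Mmp2, Mmp14, Mmp19 and Mmp23, p = 0.00649 for Timp1, p = 0.794 for Mmp11 and p = 0.513 for Mmp9.

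To compare levels between genes, CPM were divided by the exon length of each gene in kb. This length joins all annotated exons of a gene, and the lengths of the transcripts in these cells are not known. On this scale the order of mean levels with horse serum was Timp1 (199 ± 42.9 CPM per kb, SD, n = 6), Mmp2 (101 ± 5.45), Timp2 (61.1 ± 4.41), Mmp14 (37.3 ± 11.9), Timp3 (31.0 ± 1.42), Mmp11 (13.4 ± 0.908), Mmp19 (7.71 ± 0.344) and Mmp23 (3.65 ± 0.342). The ranges over the libraries of neighbours in this order overlapped for Timp2 and Mmp14 and for Mmp14 and Timp3. With STEM the order was Timp1 (149 ± 18.5 CPM per kb), Mmp2 (89.0 ± 2.84), Timp2 (78.5 ± 4.09), Timp3 (60.7 ± 3.0), Mmp14 (45.1 ± 1.82), Mmp11 (13 ± 0.539), Mmp19 (9.54 ± 0.264) and Mmp23 (4.72 ± 0.463), and no neighbours overlapped. On this scale Timp3 and Mmp14 changed places, with Mmp14 above Timp3 in 5 of 6 horse serum libraries and Timp3 above Mmp14 in 6 of 6 STEM libraries. The change of places depends on the division by length. In undivided CPM, Timp3 (235 to 268) was already above Mmp14 (171 to 211) in horse serum libraries 1 to 5. Without library 6 the mean of Mmp14 was 32.5 ± 2.56 CPM per kb and that of Timp3 31.0 ± 1.58 (SD, n = 5), with overlapping ranges, while Timp2 (57.4 to 62.4) and Mmp14 (28.6 to 35.5) no longer overlapped. Timp4 and Mmp9 had mean levels of at most 0.0740 CPM per kb in each group.

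**Figure D4:**
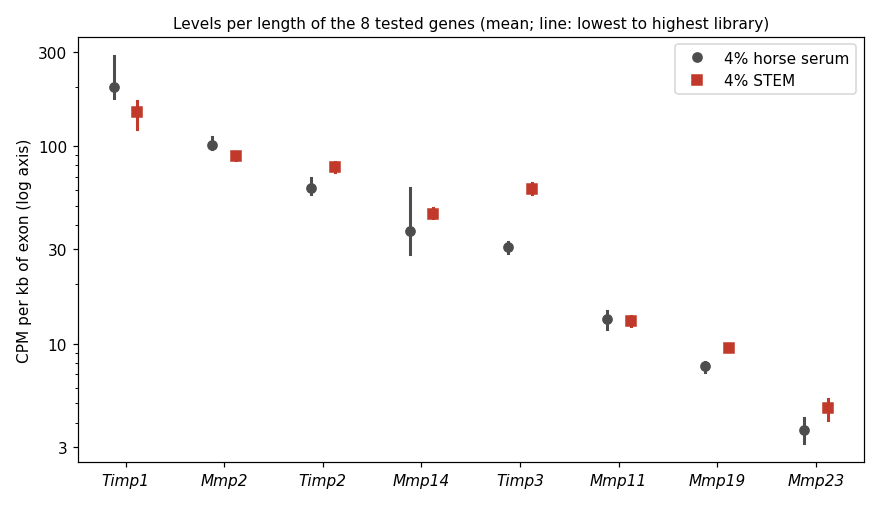
Mean level per exon length (CPM per kb, log axis) of the 8 tested genes in each group, ordered by their mean with horse serum, with lines from the lowest to the highest library. Timp3 moves from 31.0 to 60.7 CPM per kb and, on this scale, passes Mmp14, whose horse serum range (28.6 to 61.1) is widened by library 6.

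The sum of the 4 TIMP genes, on the same scale, was 291 ± 47.1 CPM per kb with horse serum and 288 ± 21.1 CPM per kb with STEM (SD, n = 6). That of the 6 MMP genes was 163 ± 18.3 and 161 ± 4.30 CPM per kb. On this scale, where the short Timp1 weighs most, the means of the totals with all 12 libraries were close. Horse serum libraries 1 to 5 had a TIMP sum of 272 ± 9.69 and an MMP sum of 155 ± 3.34 CPM per kb (SD, n = 5), both below the STEM means, with overlapping ranges. Without division by length, the summed CPM of the TIMP genes was 668 ± 57.2 with horse serum (619 to 778) and 933 ± 42.3 with STEM (881 to 998), without overlap, and that of the MMP genes was 635 ± 91.8 and 650 ± 19.0. In horse serum libraries 1 to 5 the MMP sum was 598 ± 17.3 CPM (572 to 621), below all STEM libraries (630 to 682), and the TIMP sum was 646 ± 20.6 CPM. The make-up of the sums per length also differed. Timp1 made up 67.9% ± 3.10 of the TIMP sum with horse serum and 51.5% ± 3.0 with STEM, and Timp3 made up 10.8% ± 1.39 and 21.1% ± 0.749. Among the MMPs, the share of Mmp2 was 62.2% ± 3.27 with horse serum and 55.1% ± 0.610 with STEM. The horse serum shares without library 6 were 66.7% for Timp1, 11.4% for Timp3 and 63.4% for Mmp2. The ratio of the TIMP sum to the MMP sum was 1.78 ± 0.0986 with horse serum (1.75 ± 0.0739 without library 6) and 1.79 ± 0.145 with STEM. The ratio of Timp2 to Mmp2, which form a proenzyme complex, was between 0.585 and 0.649 in the horse serum libraries (mean 0.607, and 0.603 without library 6) and between 0.817 and 0.913 in the STEM libraries. That of Timp2 to Mmp14 was 1.72 ± 0.302 with horse serum (1.83 ± 0.109 without library 6) and 1.74 ± 0.0651 with STEM, with overlapping ranges. These sums, shares and ratios are descriptions of mRNA and carry no test.

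**Figure D5:**
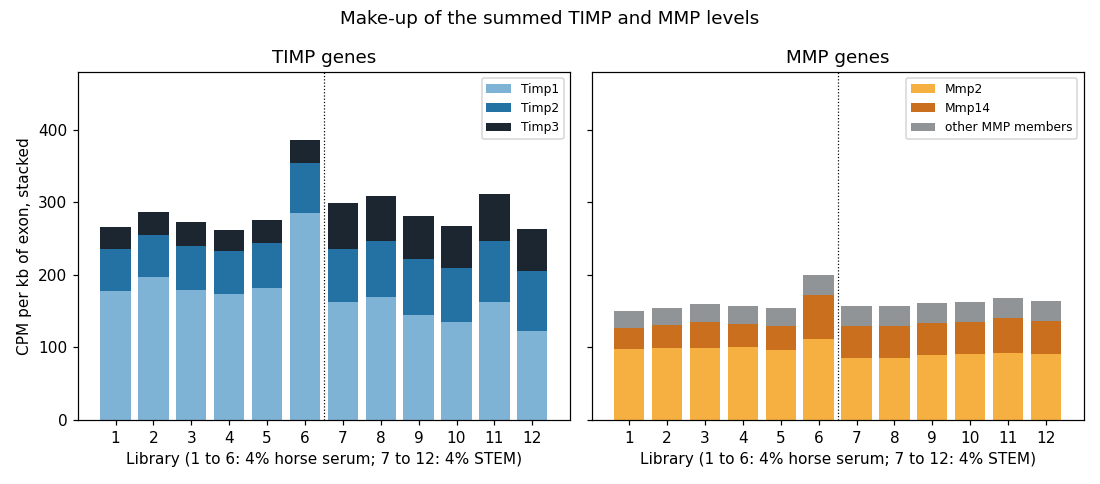
Summed level per exon length (CPM per kb, linear axis) of the TIMP genes (left) and the MMP genes (right) in each library, split by gene. Timp4 is too low to be drawn, and Mmp9, Mmp11, Mmp19 and Mmp23 are joined. Apart from horse serum library 6 (386 CPM per kb for the TIMPs and 200 for the MMPs) the totals per length lie close together, and the Timp3 part is larger in every STEM library.

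Several pairs of the 8 tested genes deviated from their group means in the same direction, among them the genes of the MMP-2 activation complex. Over the 12 libraries, the correlation of these deviations in log2 CPM was 0.85 for Mmp2 and Mmp14, 0.82 for Timp2 and Mmp14 and 0.74 for Timp2 and Mmp2 (Pearson's r). Pairs outside the complex reached similar values, with 0.77 for Timp1 and Mmp14 and 0.62 for Mmp2 and Mmp23. Without horse serum library 6 the values of the complex were 0.54, 0.64 and 0.44 over 11 libraries, that of Timp1 and Mmp14 was 0.27, and the highest was 0.66 for Timp1 and Timp3. Over all libraries the values of Timp3 were 0.47 with Timp1, 0.44 with Mmp19, 0.20 with Mmp14 and -0.02 with Mmp2. The libraries share their depth and composition between all genes, so these values are descriptions.

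By the likeness of log2 CPM over the 12 libraries, Col23a1 (r = 0.992), Mgll (0.986) and Cul5 (0.985) were nearest to Timp3 among 13282 candidate genes, and Gpx1 (0.969), Hsd17b7 (0.969) and Elovl6 (0.962) were nearest to Mmp2. These r rest mainly on the difference between the groups. With the group means removed, the nearest genes were Rapgef2 (0.894), Ereg (0.848) and Epha4 (0.837) for Timp3, and Fam120a (0.976), Smad5 (0.972) and Wdr6 (0.967) for Mmp2. For Mmp2 the last 3 values were 0.926, 0.931 and 0.908 without horse serum library 6.

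The rest of the mouse MMP family was examined as a list of 17 genes. Of these, 12 had 3 counts or fewer in every library, and Mmp1a, Mmp1b, Mmp3, Mmp8, Mmp12, Mmp20, Mmp25 and Mmp27 had 0 counts in all of them. Collagenases and stromelysins such as Mmp13, Mmp8, Mmp3 and Mmp10 were therefore not detected above the floor of 3 counts at this depth. Mmp17 (5 to 18 counts) and Mmp24 (0 to 5 counts) were below the filter. Of the 3 genes tested, Mmp15 was higher with STEM, Mmp16 was lower, and Mmp28 had a log2 fold change of -0.10 (adjusted p = 0.496 in edgeR) with all libraries and of -0.09 without horse serum library 6. Over all genes tested, 36.4% passed the test with all libraries and 50.8% without library 6. Mmp15 and Mmp16 encode membrane-type MMPs like Mmp14. Mmp15 averaged 64.0 ± 4.50 CPM in the horse serum libraries and 82.0 ± 8.07 CPM in the STEM libraries (SD, n = 6), a log2 fold change of 0.36 (adjusted p = 8.88e-04 in edgeR, standard error 0.0683). Mmp16 averaged 8.21 ± 1.23 CPM and 4.58 ± 0.587 CPM (log2 fold change -0.85, adjusted p = 7.98e-05 in edgeR, standard error 0.119), and its groups did not overlap. Neither depended on library 6, without which the log2 fold changes were 0.36 and -0.78.

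Proteins that activate, anchor, inhibit or clear MMPs were examined in 20 genes, of which 16 were tested. Of these, 4 were higher and 3 lower with STEM, against 18.9% higher and 17.4% lower of all genes tested. The list held 4 genes of proprotein convertases, a family whose members cut the propeptides of membrane-type MMPs and of MMP-11. Pcsk6 went from 2.84 ± 0.306 to 5.00 ± 0.508 CPM (log2 fold change 0.82, adjusted p = 6.08e-05 in edgeR) and Furin from 44.5 ± 11.3 to 67.5 ± 9.27 CPM (0.60, adjusted p = 0.00562). Pcsk7 had a log2 fold change of 0.21 (adjusted p = 0.0414 in edgeR), although its value in horse serum library 6 (51.6 CPM) was above all STEM libraries (44.4 to 47.8 CPM), and Pcsk5 had at most 1 count. The syndecan gene Sdc1 was also higher (0.41, adjusted p = 1.26e-04 in edgeR). Among the lower genes were Itga3 and Itgb1, the subunits of an integrin that binds TIMP-2, with log2 fold changes of -0.70 (adjusted p = 1.74e-05 in edgeR) and -0.17 (adjusted p = 0.0247). Efemp1, a matrix protein that binds TIMP-3, had a log2 fold change of -0.96 (adjusted p = 0.0142 in edgeR) on 4 to 21 counts.

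The membrane inhibitor gene Reck did not pass the test, at 4.96 ± 0.306 CPM in the control and 5.07 ± 0.644 CPM in the treated libraries (log2 fold change 0.03, approximate 95% interval -0.18 to 0.23, adjusted p = 0.859 in edgeR). Bsg, the MMP inducer basigin, had a log2 fold change of -0.33 (adjusted p = 0.138 in edgeR) with all libraries and of -0.46 (adjusted p = 2.98e-04) without horse serum library 6. Lrp1, the receptor that takes up MMPs and TIMPs, had a log2 fold change of 0.49 (adjusted p = 0.212 in edgeR) with all libraries. Without horse serum library 6 the value of Lrp1 was 0.70, just short of the threshold (adjusted p = 0.0532 in edgeR). Without library 6, 12 of the 16 genes passed the test, 7 of them higher and 5 lower, in a fit where the share of all genes that passed was 50.8% in place of 36.4%.

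The ADAM proteases, some of which TIMP-3 inhibits, were examined in 10 genes. Of the 8 tested, 3 were higher and 0 lower with STEM, and without horse serum library 6 the number that passed was also 3. Over all genes tested the shares that passed were 36.4% and 50.8%. Adam23, whose product is not an active protease, went from 5.67 ± 0.960 to 13.8 ± 1.73 CPM (log2 fold change 1.28, adjusted p = 1.47e-06 in edgeR). Adam12, which is known from fusing myoblasts, went from 35.1 ± 12.5 to 58.4 ± 6.76 CPM (0.72, adjusted p = 0.00664), and Adam15 from 33.9 ± 2.61 to 40.1 ± 2.21 CPM (0.24, adjusted p = 0.00547). The sheddase gene Adam17, a target of TIMP-3, did not pass the test, at 97.9 ± 3.81 CPM in the control and 101 ± 2.87 CPM in the treated libraries (log2 fold change 0.05, approximate 95% interval -0.03 to 0.12, adjusted p = 0.394 in edgeR).

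Fibroblasts also make MMPs and TIMPs, and fibroblast markers moved with the groups. The 8 markers summed to between 132 and 174 CPM with horse serum and between 88.4 and 98.2 CPM with STEM, and the most abundant was Cd34 (63.6 CPM). The markers Thy1 and Tcf21 had at most 1 count in any library. Of the 6 tested, Col14a1, Ly6a and Cd34 were lower and Pi16 and Dpt higher with STEM, and Pdgfra did not pass the test (log2 fold change 0.41, adjusted p = 0.112 in edgeR). Pdgfra passed it without horse serum library 6 (0.67, adjusted p = 2.48e-06 in edgeR), and the 6 were 3 higher and 3 lower. Their part in the changes of the TIMP and MMP genes was not tested. Of the 8 markers of undifferentiated myoblasts, Vcam1, Spry1, Sdc4 and Myf5 were lower and Cdh15 higher (4 lower and 3 higher without horse serum library 6), and their sum was 871 ± 34.8 CPM in the control and 871 ± 30.2 CPM in the treated libraries. Of the 10 myotube markers, Mymk and Myh4 were higher and Myog and Myh8 lower, and without horse serum library 6 the counts were 2 higher and 5 lower (36.4% and 50.8% of all genes passed in these fits).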

How the data were processed

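The data were total RNA libraries depleted of ribosomal RNA and prepared with a stranded kit, 6 per group, sequenced in paired reads. The authors deposited raw read counts per Ensembl gene (GRCm38) with no normalization. The submitters' processing notes name STAR 2.7.3a, featureCounts 1.6.3 and DESeq2 1.26.0, and the strand setting is not given in the sources used here.

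Symbols, positions and exon lengths came from GENCODE M21, which held 55227 of the 55487 listed genes. Counts were tested with edgeR 4.0.16 in R 4.3.3 (TMM, filterByExpr, robust glmQLFit, glmQLFTest) over 14175 genes, with Benjamini-Hochberg adjustment and calls at 0.05. Standard errors are the fold change over the root of the F statistic, and approximate 95% intervals are 1.96 of them. Log2 CPM used a prior count of 2. The alternatives were RLE, upper quartile or no scaling, no filter, 10 counts in every library, DESeq2 1.42.0, limma-voom (limma 3.58.1), thinning to the lowest total and leaving out each library. The test scripts were tested on simulated data. No libraries of a group were as close as repeat deposits of 1 library (chi-square per degree of freedom of 3.63 to 77.7). The highest of these values, 64.3 to 77.7, were those of horse serum library 6 with the rest of its group. Other pairs within a group had at most 20.8. Between horse serum libraries 1 to 5 and the STEM libraries the values ran from 26.1 to 51.4, so library 6 lay further from its own group. Floors of 3 counts cover counting error only.

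The genes and lists were chosen with earlier results of these data known. Named are the 10 genes, most of the other MMPs, and up to 3 called genes per list and direction with the lowest p-values. Also named are Reck, Furin, Bsg, Adam17 and Lrp1, the genes nearest to Timp3 and Mmp2, and genes overlapping the 10 apart from Gm17482 and Gm47093. Others, such as Pcsk7, Col4a1 and single markers, were named after their values were seen.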

Additional observations from a re-analysis of the deposited data

Results flagged for a closer look

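In the horse serum group, 3 of the 20 groups of 6 libraries examined (10 genes in both groups) held a library far from the rest, and it was library 6 each time. For independent groups of normally distributed values, chance gives such a gap in about 1 of 20. The genes share their libraries, so the 3 gaps are not independent and their number cannot be set against that rate. Timp1 was 253 CPM in library 6 and at most 175 CPM in the other horse serum libraries, a gap of 0.794 of the group's whole range. Mmp14 was 364 CPM against at most 211 CPM (0.789 of the range), and Mmp2 was 376 CPM against at most 337 CPM (0.752 of the range).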

How the results depend on the processing

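Under the 20 alternatives, none of the 8 tested genes among the 10 changed direction. Timp2, Timp3, Mmp2, Mmp11, Mmp19 and Mmp23 also kept their side of the threshold. Timp1 was not called without the filter on low counts (log2 fold change -0.42, adjusted p = 0.0687 in edgeR), and the cause was not tested. Mmp14 had log2 fold changes from 0.21 to 0.47 with each library left out in turn, and was called only without horse serum library 6. For Timp1 these values ran from -0.46 to -0.28, and for Timp3 from 0.94 to 0.98. The number of the 10 genes called was 6 or 7, and that of the other MMPs was 2, throughout. The genes called numbered 4459 to 7245 with a library left out, the highest without horse serum library 6. Scaling moved the median log2 fold change of all genes by at most 0.020. Timp4 and Mmp9 were too low for the main test. No paired analysis was made, because the labels give nothing, such as a plate or a batch, that pairs libraries across the groups.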

Other observations

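Factors known to act on MMP promoters were examined in 14 genes of the AP-1 and Ets families, all of which were tested, and 5 passed the test (36.4% of all genes did). The Jun genes were higher with STEM. Jun went from 62.1 ± 6.04 to 86.8 ± 3.79 CPM (SD, n = 6, log2 fold change 0.48, adjusted p = 2.81e-05 in edgeR) and Jund from 137 ± 7.75 to 178 ± 12.9 CPM (0.37, adjusted p = 1.04e-04), both without overlap between the groups. Junb had a log2 fold change of 0.32 (adjusted p = 0.00851 in edgeR). The Ets factor genes Etv4 and Etv1 were lower, with log2 fold changes of -0.92 (adjusted p = 5.5e-04 in edgeR) and -0.76 (adjusted p = 0.00191). The other 9 genes, among them Fos, Fosl1 and Ets1, did not pass the test. Leaving out horse serum library 6 gave 6 calls, 4 higher and 2 lower, against 50.8% of all genes. Elk3 was then called (log2 fold change 0.16, adjusted p = 0.0159 in edgeR), and Fosl1 went from -0.20 to -0.37 without passing (adjusted p = 0.151).

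Of 14 matrix genes whose products MMPs cut, 13 were tested, with 8 higher and 1 lower with STEM, against 18.9% higher and 17.4% lower of all genes tested. The proteoglycan gene Vcan went from 428 ± 103 to 815 ± 69.1 CPM (log2 fold change 0.93, adjusted p = 6.94e-05 in edgeR), Col5a1 from 1021 ± 107 to 1675 ± 252 CPM (0.71, adjusted p = 7.58e-05) and Bgn from 446 ± 48.9 to 613 ± 78.1 CPM (0.46, adjusted p = 7.98e-04). The laminin gene Lama2 went from 132 ± 11.3 to 105 ± 9.86 CPM (-0.33, adjusted p = 0.00175 in edgeR). Col4a1, a chain of the collagen IV that MMP-2 cuts, had a log2 fold change of 0.25 (adjusted p = 0.00220 in edgeR). Without horse serum library 6, 10 of these genes were differentially expressed, 9 higher and 1 lower, against 50.8% of all genes.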
